A study of Mus musculus with 35 samples.

Results

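The comparison described here asked whether the lung's difference between ZT16 and ZT4 was the same after 2 ways of removing neutrophils: diphtheria toxin (DT) in mice whose neutrophils were made sensitive to it, and the anti-Ly6G antibody 1A8. Its members are 21 of the 35 left-lung libraries of the series, chosen by their labels and not by any measured value: 4 DT libraries at ZT4, 3 DT libraries at ZT16, and 7 anti-Ly6G libraries at each time. Zeitgeber time counts hours from lights on, so ZT4 falls in the light phase and ZT16 in the dark phase. The quantity reported is a difference of differences on the log2 scale: ZT16 minus ZT4 after DT, minus ZT16 minus ZT4 after anti-Ly6G. A positive value means that the change toward ZT16 was more positive after DT.

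All mice were males of 7 to 9 weeks. DT was given at 10 ng/g to mice with the alleles MRP8-Cre and iDTR-flox, in which the toxin's receptor is made where the myeloid MRP8 promoter drives Cre; the anti-Ly6G mice were wild type and received the antibody at 3 µg/g. Both agents were given under the skin on 2 consecutive days, and the PBS-perfused lobes were taken at one clock time on the following morning. ZT4 mice lived in the normal facility light cycle and ZT16 mice in inverted-light cabinets, so time and housing go together in both treatments. All DT libraries belong to the batch of April 2018. Of the anti-Ly6G libraries, 8 belong to the batch labelled September and 6 to the batch labelled July. Depletion method, genotype and batch therefore go together and cannot be told apart in any result below. The April batch held no untreated mice, so removal of neutrophils by DT was not checked against controls, and the level of a gene in a DT library is not set against its level in an anti-Ly6G library.

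The mammalian clock is a transcriptional loop in which BMAL1 with CLOCK or NPAS2 drives the Per, Cry, Nr1d1 and Dbp genes, whose products then feed back on it; the REV-ERB receptors (Nr1d1, Nr1d2) repress and the ROR receptors activate Arntl, the gene of BMAL1. Transcripts of this loop swing strongly with the hour in lung. Neutrophils enter and leave lung with a daily rhythm, and the lung also holds a large capillary endothelium, an alveolar and an airway epithelium, and a mesothelial covering.

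The deposited values of each of the 21 libraries summed to between 963000 and 1020000, and between 15351 and 15802 genes reached a value of 1 in a library; the read depth behind them is unknown. Of 23 mature neutrophil genes tested, levels of S100a8, S100a9 and Retnlg are given here. Other members, such as G0s2 and Hdc, had higher values. The list's summed level was 247 to 275 in DT ZT4 and 207 to 254 in DT ZT16. In anti-Ly6G it was 211 to 322 at ZT4 and 179 to 234 at ZT16. S100a9, a calprotectin subunit, was at 5.60 to 10.28 in DT ZT4, 3.61 to 16.4 in DT ZT16, 5.31 to 14.1 in anti-Ly6G ZT4 and 4.29 to 7.60 in anti-Ly6G ZT16. S100a8, its partner, ranged from 3.36 to 14.2 over all 4 groups, and the neutrophil transcript Retnlg from 0.267 to 4.19. For neither S100a8 (0.92 ± 0.83 (SE), adjusted p = 0.46), S100a9 (0.71 ± 0.84 (SE), adjusted p = 0.593), Retnlg (0.87 ± 0.74 (SE), adjusted p = 0.429) nor Csf3r, the G-CSF receptor (-0.020 ± 0.57 (SE), adjusted p = 0.986), did the difference between the time differences pass the test.

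The time differences of the 2 depletions had little in common across the transcriptome. Of 16786 genes tested, 3202 had a called difference at an adjusted p below 0.05 in limma, which is 19.1% of those tested. In 1249 of them (7.44%) the change toward ZT16 was more positive after DT and in 1953 (11.6%) more negative; 225 differed by more than 2-fold. The split depended on scaling: 50.5% of the calls were more positive after quantile normalisation and 29.6% after centring each library on its median, against 39% as deposited. Taken alone, the DT mice had 2565 genes that changed with time (15.3%; 889 or 5.3% rose and 1676 or 9.98% fell) and the anti-Ly6G mice 3514 (20.9%; 1775 or 10.6% rose and 1739 or 10.4% fell). Of the 675 genes called in both, which come from separate libraries, 337 moved the same way and 338 the opposite way. Leaving out 1 DT library at ZT4 (library 1 in the table's column order) lowered the calls of a difference from 3202 to 2121, and the calls in DT alone from 2565 to 1190. The calls in DT alone were 1559 without DT ZT16 library 1 and 1537 without DT ZT16 library 2.

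Across all 16786 genes the time differences after DT and after anti-Ly6G correlated at r = 0.0395 (Spearman's rho -0.0359). Within anti-Ly6G, the time differences of the September and July mice correlated at r = 0.516; the DT values correlated with the September values at -0.0728 and with the July values at 0.163. These are correlations across genes, which are not independent replicates; no pair shares a library, while all share the table's normalisation. In a principal component analysis of the 21 libraries, the first component (17.6% of the variance) placed the anti-Ly6G libraries at 5.02 to 25.1 at ZT4 and at -22.9 to -9.79 at ZT16, with the DT libraries between -1.60 and 6.25. The second component (13.6%) placed the DT libraries at 7.97 to 27.8 at ZT4 and at -28.9 to -18.7 at ZT16, with the anti-Ly6G libraries between -7.17 and 13.3.

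**Figure D1:**
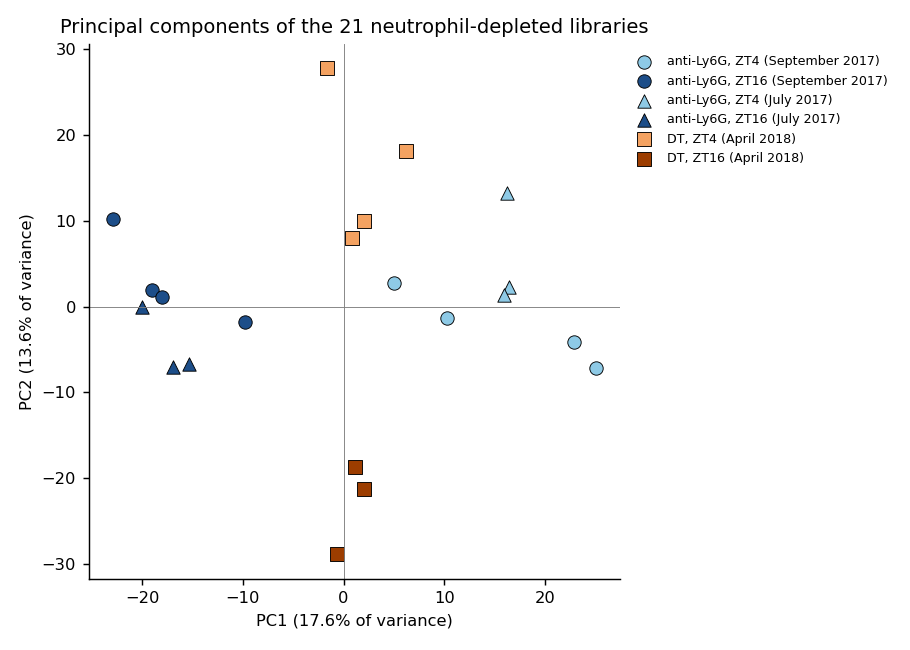
First principal component (x axis, component score) against the second (y axis, component score) of log2 values in the 21 libraries; colour marks treatment and time, shape marks the batch. The anti-Ly6G times separate along the first component, where the DT libraries lie between -1.60 and 6.25, and the DT times separate along the second.

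**Figure D2:**
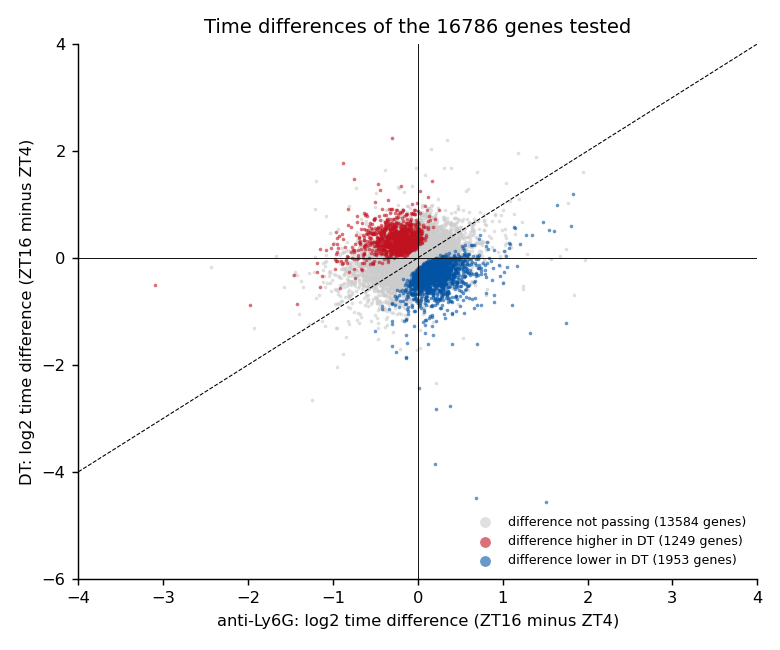
Log2 time difference (ZT16 minus ZT4) after anti-Ly6G (x axis) and after DT (y axis) for each of the 16786 genes tested, 1 point a gene; the dashed line marks equal time differences. The 1249 genes with a more positive change after DT lie above the line and the 1953 with a more negative change below it.

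Set against each antibody batch alone, the DT mice differed in 3356 genes from September (20%; 1243 or 7.4% more positive, 2113 or 12.6% more negative) and in 1099 genes from July (6.55%; 340 or 2.03% more positive, 759 or 4.52% more negative). These comparisons share the 7 DT libraries. The July count rests on fewer anti-Ly6G libraries, and it fell to 503 without anti-Ly6G ZT4 library 2 of July and to 582 without DT ZT4 library 1. Between the antibody batches the same fit called 1 gene (0.00596%), while 1456 had an unadjusted p below 0.05. Other settings called between 0 and 13 genes there, and leaving out single libraries between 0 and 220.

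In the core clock the strongest rises shared their direction between the depletions, and the time differences of 4 genes differed. Of 23 clock genes tested, 1 difference was more positive after DT (Nr1d1) and 3 more negative (Cry1, Csnk1e and Rora); the median over the list was -0.08, against 0.01 for all genes. These counts are near the shares of all genes tested, 7.44% and 11.6%. After anti-Ly6G 10 clock genes rose and 3 fell; after DT 3 rose and none fell.

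Nr1d1, which encodes REV-ERB alpha (chromosome 11, 98767932 to 98775333, GRCm38), had values of 78.2, 115, 192 and 156 in the DT libraries at ZT4 and of 136, 95.4 and 56.2 at ZT16, so the DT groups overlapped. In anti-Ly6G it lay between 137 and 369 (median 303) at ZT4 and between 13.4 and 59.0 (median 25.9) at ZT16, without overlap. The time difference was -0.51 after DT (adjusted p = 0.473) and -3.10 after anti-Ly6G (adjusted p = 5.67e-09), and the difference between them 2.59 ± 0.54 (SE, adjusted p = 0.0012). It was 2.13 against September and 3.20 against July. Its exons share 263 bases with those of Thra, and reads there may belong to either gene.

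Cry1, a cryptochrome that represses CLOCK-BMAL1 (chromosome 10, 85131700 to 85185064, GRCm38), was at 13.9, 16.5, 18.4 and 16.6 in the DT libraries at ZT4 and at 39.0, 39.6 and 35.8 at ZT16. In anti-Ly6G it lay between 11.2 and 14.96 (median 12.6) at ZT4 and between 39.4 and 51.3 (median 48.3) at ZT16. Times did not overlap in either treatment. It rose by 1.203 after DT (adjusted p = 3.21e-08) and by 1.83 after anti-Ly6G (adjusted p = 1.02e-17), and the difference was -0.62 ± 0.15 (SE, adjusted p = 0.0034; -0.54 against September, -0.73 against July).

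The promoters of both genes are shown because CLOCK-BMAL1 acts on them through E-boxes. The fall of Nr1d1 and the rise of Cry1 toward ZT16 were both smaller after DT than after anti-Ly6G, and that of Nr1d1 was not called after DT. The bases are the 250 before the annotated start from RefSeq (GRCm38.p6), written 5′ to 3′ on the gene's strand, with matches to the E-box CACGTG and to the related CACGTT, which reads AACGTG on the other strand, in capitals.
Nr1d1, minus strand of chr11:98775378-98775627: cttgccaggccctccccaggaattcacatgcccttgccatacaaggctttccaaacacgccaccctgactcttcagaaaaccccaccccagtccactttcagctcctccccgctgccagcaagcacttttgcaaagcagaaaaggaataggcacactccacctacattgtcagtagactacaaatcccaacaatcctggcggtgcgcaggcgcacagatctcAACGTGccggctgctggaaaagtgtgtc
Cry1, minus strand of chr10:85185055-85185304: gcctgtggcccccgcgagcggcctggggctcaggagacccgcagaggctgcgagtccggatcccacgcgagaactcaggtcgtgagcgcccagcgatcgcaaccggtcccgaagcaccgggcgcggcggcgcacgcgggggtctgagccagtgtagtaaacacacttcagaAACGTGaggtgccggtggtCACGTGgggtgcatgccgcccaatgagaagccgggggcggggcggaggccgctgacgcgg
The Cry1 window held 1 copy of each motif and the Nr1d1 window 1 copy of the second. The window of Dbp, searched in the same way, held neither and is not printed. CACGTG was found in 6.05% of the 27025 RefSeq promoter windows of this length and CACGTT in 3.93%, on either strand. A search for TAGGTCA, a sequence of the kind REV-ERB and ROR bind, found none in these windows and a match in 2.27% of all.

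Csnk1e, a kinase of PER proteins, differed by -0.37 ± 0.080 (SE, adjusted p = 0.00167), and Rora, a ROR receptor, by -0.46 ± 0.15 (SE, adjusted p = 0.0254). Csnk1e was at 110 to 116 and then 103 to 108 in the DT libraries, and at 94.4 to 110 and then 110 to 135 in the anti-Ly6G libraries; its exons overlap a predicted gene by 267 bases. The call for Rora was lost after quantile normalisation (-0.37, adjusted p = 0.0627), without DT ZT4 library 2 (-0.42, adjusted p = 0.0582), without DT ZT16 library 2 (-0.38, adjusted p = 0.0976) and after removal of the trend with transcript length described below (-0.24, adjusted p = 0.216).

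Per2, a period repressor, rose by 1.03 after DT and by 1.77 after anti-Ly6G, with a difference of -0.74 whose interval of -1.55 to 0.07 spans zero (adjusted p = 0.192). Dbp, a PAR bZIP output factor whose exons share 539 bases with Sphk2, was at 12.4 to 70.0 and then 25.4 to 39.9 in DT, and at 19.5 to 83.6 and then 6.67 to 32.9 in anti-Ly6G. Its difference was 1.70 ± 0.65 (SE, adjusted p = 0.0604), and it crossed the threshold when any of 4 single libraries was left out. Arntl did not pass, at 0.46 ± 0.49 (SE, adjusted p = 0.539), nor did Npas2 at 1.17 ± 0.55 (SE, adjusted p = 0.13), Nr1d2 at 0.30 ± 0.33 (SE, adjusted p = 0.561), Nfil3 at -0.48 ± 0.35 (SE, adjusted p = 0.348), Bhlhe41 at 0.66 ± 0.29 (SE, adjusted p = 0.104) or Per3 at -0.08 ± 0.28 (SE, adjusted p = 0.878). Spread among DT libraries at ZT4 was wide for these genes: Per2 ran from 30.7 to 94.3 there and Arntl from 8.39 to 24.7.

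**Figure D3:**
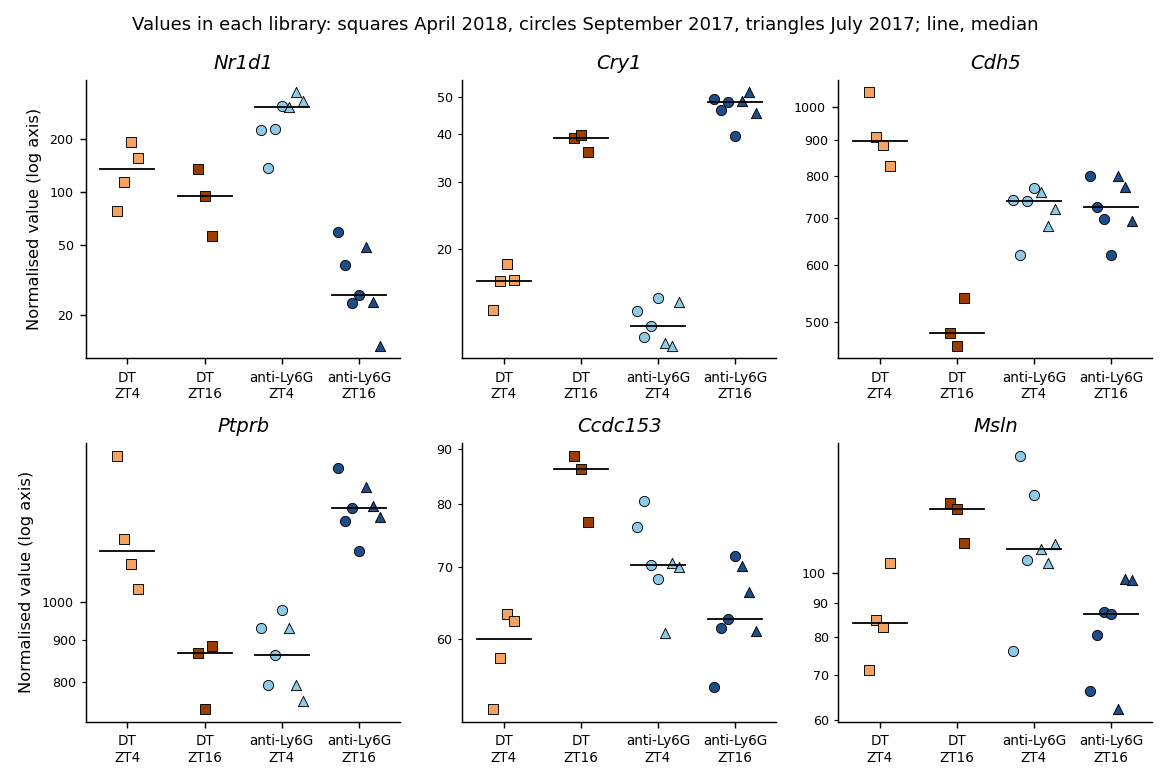
Normalised values (y axis, log scale) of 6 genes in each of the 21 libraries by treatment and time (x axis). Points are libraries and lines are medians. Squares mark the batch of April 2018, circles that of September and triangles that of July. Nr1d1 separates by time in anti-Ly6G only, Cry1 in both, Cdh5 and Ccdc153 in DT only, and Ptprb moves in opposite directions.

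The genes that moved most with time after anti-Ly6G are given here with their DT values; they were ranked on the anti-Ly6G libraries, which also enter the difference. Among the 10 largest rises, Cry1, Per2, Cys1 and Fmo2 rose after DT as well. Cys1, which encodes a ciliary protein, rose by 1.64 after anti-Ly6G and by 0.99 after DT, and Fmo2, a flavin monooxygenase, by 1.28 and 0.42. Fmo2 was at 1147 to 1182 and then 1286 to 1713 in DT, and at 794 to 1075 and then 1757 to 2522 in anti-Ly6G, with a difference of -0.86 ± 0.13 (SE, adjusted p = 5.63e-05). Of the same 10, these were not called after DT: Akr1c14 had 0.43 after DT against 1.35, Fam107a 0.03 against 1.68, the chaperone Hsph1 0.08 against 1.28 and Fkbp5, a glucocorticoid-responsive co-chaperone, 0.68 against 1.23. The difference itself passed for Akr1c14 (-0.92, adjusted p = 0.0179; lost at 0.0977 without DT ZT16 library 2) and did not for Fam107a (-1.65, adjusted p = 0.0773), Hsph1 (adjusted p = 0.119) or Fkbp5 (adjusted p = 0.632). Hspa1b is described with the heat shock genes.

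Among the 10 largest falls after anti-Ly6G, Cxcl15, Acoxl, Scn3a, Itgb6 and Colq fell after DT as well. Cxcl15, the lung chemokine lungkine, fell from 1104 to 1432 at ZT4 to 401 to 536 at ZT16 in anti-Ly6G, and from 979 to 1184 to 550 to 622 in DT. The time differences were -1.42 and -0.85, and they differed by 0.57 ± 0.12 (SE, adjusted p = 0.00182). Itgb6, an epithelial integrin subunit, fell by 1.15 and by 0.54, a difference of 0.61 (adjusted p = 0.028; 0.0646 without DT ZT4 library 3 and 0.084 without DT ZT16 library 3). Colq fell by 1.13 and 1.18, with a difference of -0.05 ± 0.27 (SE, adjusted p = 0.915). Acoxl fell by 1.40 and 1.05 and Scn3a by 1.203 and 0.74, and neither difference passed. Nr1d1 and Dbp, given above, were also among these falls.

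Capillary endothelial transcripts fell toward ZT16 after DT and mostly did not after anti-Ly6G. Of 23 capillary endothelium genes tested, 12 differences were more negative after DT and none more positive, against 11.6% and 7.44% of all genes tested; the list's median was -0.46. In DT alone 13 of the 23 fell and none rose; in anti-Ly6G 8 rose and 3 fell. The summed level of the list was 8750 to 10400 at ZT4 and 6830 to 7450 at ZT16 in DT, and 6700 to 8610 and then 8100 to 10000 in anti-Ly6G. In whole lobes, fewer endothelial cells and less RNA per cell cannot be told apart. Within single treatments, 9.98% of all genes tested fell and 5.3% rose after DT, and 10.4% fell and 10.6% rose after anti-Ly6G. These shares, and the 11.6% and 7.44% for the difference, also stand beside the counts of the lists below.

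Cdh5 encodes VE-cadherin, the adhesion molecule of endothelial junctions (chromosome 8, 104101625 to 104144511, GRCm38). Its values after DT were 1048, 906, 883 and 826 at ZT4 and 482, 463 and 541 at ZT16, while those after anti-Ly6G lay between 620 and 769 (median 738) at ZT4 and between 621 and 801 (median 724) at ZT16. The DT groups did not overlap and the anti-Ly6G groups did. The time difference was -0.88 after DT (adjusted p = 4.69e-07) and 0.02 after anti-Ly6G (adjusted p = 0.871), and the difference -0.90 ± 0.12 (SE, adjusted p = 1.01e-05; -0.87 against September, -0.95 against July). Ptprb, the vascular phosphatase VE-PTP, moved in opposite directions. It went from 1506, 1195, 1112 and 1037 to 868, 743 and 886 after DT, and from between 760 and 980 (median 865) to between 1155 and 1457 (median 1300) after anti-Ly6G. Its difference was -1.13 ± 0.14 (SE, adjusted p = 4.17e-06). Calcrl, the adrenomedullin receptor, also fell after DT (-0.39) and rose after anti-Ly6G (0.47), with a difference of -0.86 (adjusted p = 0.000338). Endothelium also makes 2 genes counted here in other lists: Ace, the angiotensin-converting enzyme (monocyte list), differed by -1.10 (adjusted p = 1.13e-05) and Vwf, the von Willebrand factor (platelet list), by -0.89 (adjusted p = 0.00504).

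Of 25 angiogenic signalling genes, 10 differences were more negative after DT and none more positive, with a median of -0.46. The list shares 6 genes, 5 of them among the 10, with the capillary and lymphatic endothelium lists; of the other 19 genes 5 were more negative. Tek, the angiopoietin receptor, fell by 0.44 after DT and rose by 0.40 after anti-Ly6G, a difference of -0.84 (adjusted p = 0.000116). Notch1, a receptor of endothelial patterning, fell by 0.55 and rose by 0.33, a difference of -0.88 (adjusted p = 9.09e-05). Nrp1, a VEGF co-receptor, differed by -0.77 (adjusted p = 7.78e-05). The ligand Hgf, a hepatocyte growth factor made mainly by mesenchyme, was at 15.7 to 37.2 and then 7.47 to 8.63 in DT and at 14.7 to 23.8 and then 11.9 to 20.8 in anti-Ly6G; its difference was -1.47 ± 0.24 (SE, adjusted p = 0.000114). Kit, a receptor tyrosine kinase of the mast cell list that a subset of lung capillary cells also carries, differed by -0.85 (adjusted p = 0.00012). Of 10 lymphatic endothelium genes 4 were more negative and none more positive, among them Flt4, the VEGF-C receptor (-0.64, adjusted p = 0.00445), and the hyaluronan receptor Lyve1 (-0.89, adjusted p = 0.0165). Lyve1 rose by 1.07 after anti-Ly6G, with a DT value of 0.18 that was not called, and its difference did not pass without DT ZT4 library 1, DT ZT16 library 2 or DT ZT16 library 3. The lymphatic count was 1 when DT ZT4 library 1, DT ZT16 library 2 or DT ZT16 library 3 was left out, and 2 after removal of the trend with transcript length described below.

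Basement membrane genes were among the matrix genes that parted. Of 32 extracellular matrix genes, 11 differences were more negative after DT and 3 more positive (median -0.11). After quantile normalisation the counts were 7 and 4. With the trend on transcript length described below removed, they were 8 and 5, with a median of -0.013. Many matrix genes fell toward ZT16 in both treatments taken alone: 17 fell and none rose after DT, and 13 fell and 4 rose after anti-Ly6G. Col4a1, a basement membrane collagen chain, fell from 1022 to 1372 to 582 to 747 after DT and was at 790 to 1070 and then 815 to 1124 after anti-Ly6G, with a difference of -0.82 (adjusted p = 0.000165). The laminin chains Lama2 (-0.54, adjusted p = 0.000427) and Lamc1 (-0.47, adjusted p = 0.000485) and the nidogen Nid1 (-0.68, adjusted p = 0.00048) differed in the same direction. The fibrillar collagen gene Col3a1 went the other way, with -0.22 after DT (not called), a fall of 0.67 after anti-Ly6G and a difference of 0.46 (adjusted p = 0.0175; 0.0537 without DT ZT4 library 1). Pdgfra, a PDGF receptor in the fibroblast list, was at 461, 384, 293 and 348 and then 229, 187 and 256 in DT, and differed by -0.99 ± 0.16 (SE, adjusted p = 9.24e-05).

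Airway and surface epithelial transcripts went the other way. Of 23 ciliated cell genes, 13 differences were more positive after DT and none more negative (median 0.57); 13 rose in DT alone, while after anti-Ly6G 4 fell and none rose. Ccdc153, a gene of motile cilia (chromosome 9, 44240676 to 44247306, GRCm38), was at 51.6, 57.6, 63.3 and 62.4 and then 88.8, 86.4 and 77.1 in DT, without overlap. In anti-Ly6G it lay between 60.8 and 80.5 (median 70.2) and then between 54.1 and 71.7 (median 62.6), with overlap. The difference was 0.67 ± 0.13 (SE, adjusted p = 0.00089; 0.76 against September, 0.54 against July). Cfap126, a gene of ciliary basal bodies, differed by 0.97 (adjusted p = 0.000286), Mapk15, a kinase needed for cilium formation that is outside the list, by 0.92 (adjusted p = 0.000678), Dynlrb2, a dynein light chain, by 0.71 (adjusted p = 0.00162), and Ccdc40, needed for axoneme assembly, by 0.57 (adjusted p = 0.00118). The summed level of the ciliated list was 991 to 1150 and then 1260 to 1530 in DT, against 1080 to 1280 and then 1070 to 1260 in anti-Ly6G.

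Of 20 airway secretory genes, 9 differences were more positive and 1 more negative (median 0.68), and 13 rose in DT alone. Scgb1a1, the club cell secretoglobin, was at 21010 to 27740 and then 32040 to 39580 in DT and at 26090 to 31370 and then 22010 to 32700 in anti-Ly6G; its difference was 0.68 ± 0.20 (SE, adjusted p = 0.0139). Scgb3a1, another secretoglobin, went from 99.5 to 202 to 305 to 386 in DT and was at 166 to 336 and then 170 to 268 in anti-Ly6G, a difference of 1.08 ± 0.29 (SE, adjusted p = 0.00962). Lypd2 differed by 0.73 (adjusted p = 0.00668). Pigr, the receptor that carries polymeric antibodies across epithelium, differed by 0.97 (adjusted p = 0.00655), and Slpi, a secreted protease inhibitor outside the list, by 1.01 (adjusted p = 0.0232). The call for Scgb1a1 was lost without the filter on low values (adjusted p = 0.102), with the 21 libraries alone (adjusted p = 0.0507), after removal of the length trend (0.42, adjusted p = 0.0747) and after quantile normalisation, which gives the gene with the highest value the same value in each library. The call for Slpi was lost after removal of the length trend (0.79, adjusted p = 0.0724), without DT ZT4 library 1 (adjusted p = 0.0641) and without DT ZT16 library 1 (0.67, adjusted p = 0.151). Set against the antibody batches singly, 12 secretory genes were more positive than in September and 1 was more positive and 1 more negative than in July. Against July the adjusted p was 0.2 for Scgb1a1, 0.105 for Scgb3a1, 0.126 for Lypd2, 0.165 for Pigr and 0.247 for Slpi.

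Of 16 mesothelium genes, 9 differences were more positive and none more negative (median 0.69). Here the anti-Ly6G mice moved more: 12 genes fell after anti-Ly6G and none rose, while after DT 4 rose and 1 fell. Msln, which encodes mesothelin (chromosome 17, 25748613 to 25754378, GRCm38), was at 71.2, 85.0, 82.9 and 104 and then 128, 125 and 111 in DT, and between 76.2 and 150 (median 108) and then 62.3 and 98.0 (median 86.8) in anti-Ly6G; its difference was 0.94 ± 0.24 (SE, adjusted p = 0.00733). Slurp1, a secreted Ly6-family protein, was at 2.88 to 5.71 and then 7.01 to 9.02 in DT and at 4.63 to 18.04 and then 2.01 to 5.79 in anti-Ly6G, a difference of 1.72 ± 0.38 (SE, adjusted p = 0.00187). Its exons share 322 bases with Them6. Dmkn differed by 0.78 (adjusted p = 0.00408), and the simple-epithelium keratins Krt18 (0.43, adjusted p = 0.0046) and Krt19 (0.47, adjusted p = 0.0059) differed in the same direction. Aldh1a2, the retinoic acid enzyme of mesothelium, differed by 1.07 (adjusted p = 0.00746). The list's summed level in 1 anti-Ly6G ZT4 library reached 3380 against a group median of 1860; the count of 9 lay between 7 and 10 when any single library was left out.

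Of 23 alveolar type 2 genes, 6 were more negative after DT and 2 more positive, against 11.6% and 7.44% of all genes tested. Fasn, the fatty acid synthase used for surfactant lipid, fell by 0.54 after DT and rose by 0.30 after anti-Ly6G, with a difference of -0.84 (adjusted p = 0.00191). Lgi3 differed by -0.46 (adjusted p = 0.000332). Of 20 alveolar type 1 genes 2 were more negative and none more positive, which is near or below the shares of all genes.

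**Figure D4:**
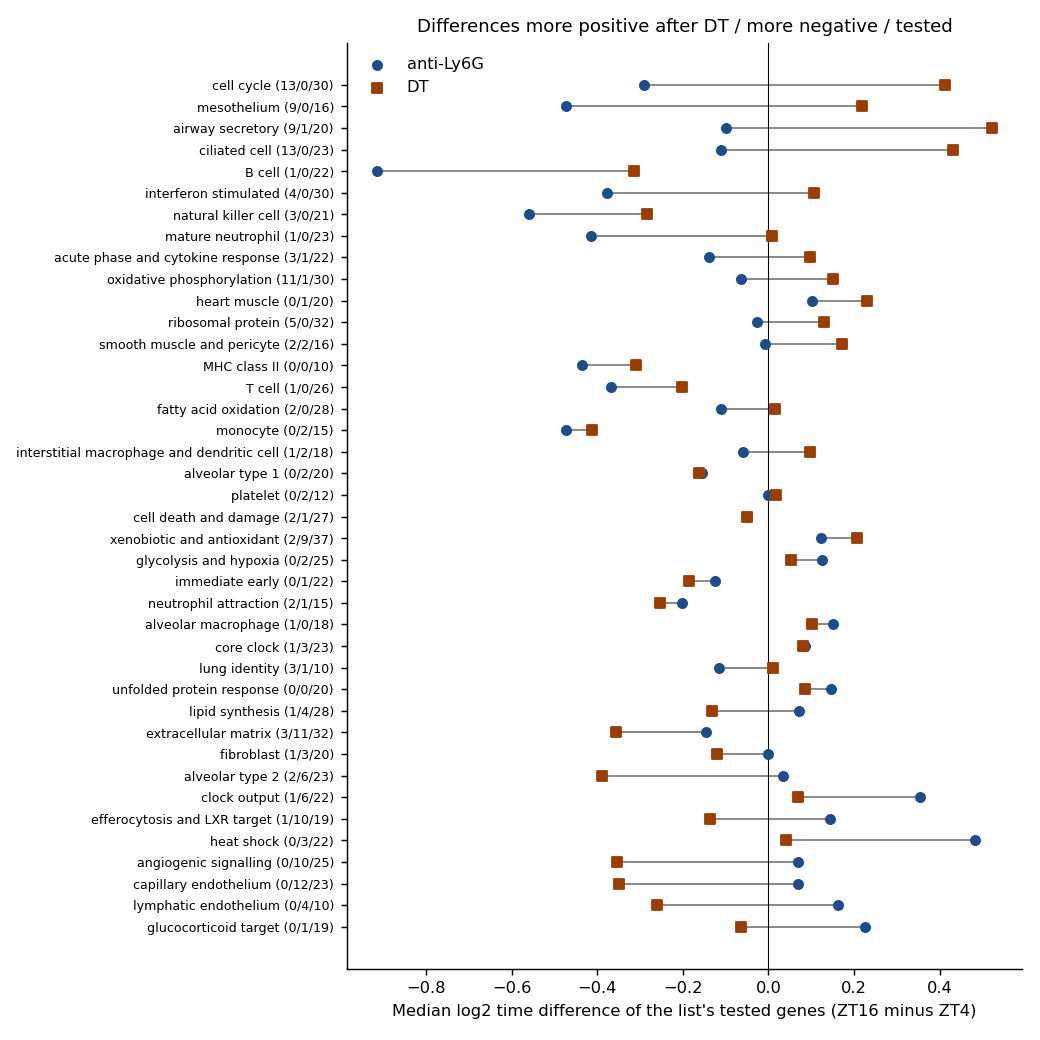
Median log2 time difference (x axis, ZT16 minus ZT4) over the tested genes of each list with at least 10 of them (y axis, ordered by the list's median difference); circles are anti-Ly6G and squares DT. Numbers after each name count differences more positive after DT, more negative after DT and genes tested. Cell cycle, mesothelium, airway secretory and ciliated cell lie near the top, and glucocorticoid target and the endothelial lists near the bottom.

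Fewer genes passed against July than against September over all genes tested, and the lists are given here with both counts. Against September and then July, the more negative differences numbered 12 and 11 in capillary endothelium, 12 and 8 in angiogenic signalling and 10 and 4 in extracellular matrix. The more positive ones numbered 13 and 6 in ciliated cells, 7 and 3 in mesothelium and 12 and 1 in the cell cycle.

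Of 37 xenobiotic and antioxidant genes, 14 rose after DT and 15 after anti-Ly6G, and 9 differences were more negative after DT against 2 more positive. After quantile normalisation the counts were 7 and 7, and against September alone they were 7 and 7 as well. Gsta3, a glutathione transferase, went from 188 to 209 to 291 to 300 after DT and from 154 to 183 to 346 to 389 after anti-Ly6G, rises of 0.59 and 1.13 that differed by -0.55 ± 0.095 (SE, adjusted p = 0.000195). Fmo1, a flavin monooxygenase, and Cyp4b1, a lung cytochrome P450, each rose by 0.58 after anti-Ly6G and were not called after DT (-0.11 and 0.06). In the clock output list 6 of 22 differences were more negative and 1 more positive, and 11 of its genes rose after anti-Ly6G against 2 after DT. Lonrf3 went from 3.80 to 6.55 to 6.85 to 9.15 after DT and from 2.28 to 4.58 to 10.4 to 15.8 after anti-Ly6G, a difference of -1.204 ± 0.26 (SE, adjusted p = 0.0015). Klf9, a glucocorticoid-responsive factor, differed by -1.01 (adjusted p = 0.0104; 0.068 without DT ZT16 library 2). Hsd11b1, the enzyme that regenerates active glucocorticoid, differed by -1.01 ± 0.15 (SE, adjusted p = 2.57e-05), with a rise of 0.79 after anti-Ly6G and -0.22 after DT, which was not called.

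Among genes of efferocytosis (the uptake of dying cells) and targets of the LXR receptors, 10 of 19 differences were more negative after DT and 1 more positive (median -0.37). Cd36, a scavenger receptor also made by capillary endothelium, fell by 0.80 after DT and by 0.18 after anti-Ly6G, a difference of -0.62 (adjusted p = 0.00026). Mfge8, a bridging molecule to dying cells, fell by 0.22 and rose by 0.20, a difference of -0.43 (adjusted p = 0.00102). Lrp1, an uptake receptor, differed by -0.52 (adjusted p = 0.00194; -0.29, adjusted p = 0.0664, with the length trend removed) and Pros1, the TAM receptor ligand protein S, by -0.40 (adjusted p = 0.00205). Without DT ZT16 library 2 the count of 10 was 6.

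Leukocyte lists had few called differences, which does not show that their time differences were alike. Their median differences were 0.57 for B cell, 0.47 for interferon-stimulated, 0.32 for natural killer and 0.31 for mature neutrophil genes. They were 0.15 for neutrophil granule, 0.125 for MHC class II, 0.12 for T cell and -0.06 for neutrophil attraction genes, against 0.01 for all genes. Of 23 mature neutrophil genes 1 difference passed, that of Hdc, the histidine decarboxylase that mast cells and basophils also make: it was at 65.1 to 80.4 and then 60.7 to 69.9 in DT and fell from 76.7 to 102 to 38.8 to 53.6 in anti-Ly6G, a difference of 0.77 ± 0.17 (SE, adjusted p = 0.00236). None of 6 neutrophil granule genes passed. Of 15 neutrophil attraction genes, Cxcl15 and Cxcl5, a neutrophil chemokine, were more positive and Cxcl12, the ligand of CXCR4, more negative. Cxcl5 was at 0.198 to 0.741 and then 1.37 to 2.02 in DT, and at 0.175 to 4.44 and then 0.291 to 1.24 in anti-Ly6G; its difference of 1.55 ± 0.48 (SE, adjusted p = 0.0212) was 2.28 against September and 0.59 against July, where it did not pass. Cxcl12 differed by -0.48 (adjusted p = 0.0325) and lost the call after quantile normalisation (-0.35, adjusted p = 0.151), with the 21 libraries alone (adjusted p = 0.0603) and after removal of the length trend (-0.33, adjusted p = 0.167). Without DT ZT16 library 1 it was -0.30 (adjusted p = 0.206), and 3 other single libraries also ended the call. The call for Cxcl5 was lost without DT ZT16 library 2 (adjusted p = 0.053) or 3 (adjusted p = 0.0539).

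B cell genes fell after anti-Ly6G in 16 of 22 cases and after DT in 1, yet the difference itself passed in 1, Cd79b, a chain of the B cell receptor complex (1.24 ± 0.40 (SE), adjusted p = 0.0255). That call was lost without DT ZT4 library 3, DT ZT16 library 2 or DT ZT16 library 3 and after removal of the length trend. Natural killer genes fell in 11 of 21 cases after anti-Ly6G and in 1 after DT, and 3 differences passed: Klra4 at 1.13 (adjusted p = 0.0169), Klra3 at 1.26 (adjusted p = 0.0243) and Klrd1 at 0.74 (adjusted p = 0.0427), all lectin-like receptors. Klra3 and Klra4 are near copies of each other and of their neighbours, so their split of reads is uncertain, and none of the 3 passed without DT ZT4 library 1, without DT ZT16 library 2 or after the length trend was removed. Of 26 T cell genes 1 passed, Zap70, a T cell receptor kinase (0.66, adjusted p = 0.0174). Of 30 interferon-stimulated genes 4 were more positive and none more negative: Usp18 (0.60, adjusted p = 0.00829), Mx1 (0.70, adjusted p = 0.0239), Oasl2 (0.74, adjusted p = 0.0477) and Cxcl10 (1.33, adjusted p = 0.0477). Leaving out single libraries gave between 0 and 5 such genes, with 0 without DT ZT16 library 1 and 1 without DT ZT4 library 1. Of the 21 such fits, Cxcl10 lost the call in 15, Oasl2 in 12, Mx1 in 2 and Usp18 in 1. The list's summed level in 1 anti-Ly6G ZT4 library reached 2980 against a group median of 919. No MHC class II difference passed among 10 genes, 8 of which fell after anti-Ly6G and 2 after DT.

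Of 30 cell cycle genes 13 differences were more positive and none more negative (median 0.79), at low values. Ube2c, a mitotic ubiquitin-conjugating enzyme, was at 2.07 to 3.31 and then 3.56 to 8.32 in DT and at 2.49 to 7.36 and then 2.11 to 4.01 in anti-Ly6G, a difference of 1.21 (adjusted p = 0.01). Cdc20, the activator of the anaphase-promoting complex, differed by 1.01 (adjusted p = 0.00962), Ccna2, cyclin A2, by 0.96 (adjusted p = 0.0131) and Tpx2, a spindle factor, by 0.86 (adjusted p = 0.00976). This count rested on 1 library: it was 1 instead of 13 without DT ZT16 library 1, whose summed level of the list was 424 against 265 and 303 in the other two.

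The 2 cold-inducible RNA-binding protein genes tested were both more positive after DT. Cirbp was at 64.9, 73.6, 68.8 and 61.7 and then 120, 66.1 and 101 in DT and fell from 76.6 to 133 to 53.7 to 80.9 in anti-Ly6G, a difference of 1.06 ± 0.24 (SE, adjusted p = 0.00299); Rbm3 differed by 0.84 ± 0.19 (SE, adjusted p = 0.00262). Neither was called in DT alone. Heat shock genes rose in 10 of 22 cases after anti-Ly6G and in none after DT, and 3 differences passed, all more negative, a share near the 11.6% of all genes tested: Hspa1b (-2.96 ± 0.99 (SE), adjusted p = 0.0336), Hspa1a (-2.73 ± 0.87 (SE), adjusted p = 0.0245) and Dnajb1 (-1.09, adjusted p = 0.0417). Hspa1a and Hspa1b are neighbouring, nearly identical Hsp70 genes whose reads cannot be split with certainty. Values scattered widely, with Hspa1b at 29.7 to 106 and then 11.2 to 72.2 in DT and at 7.96 to 45.0 and then 26.6 to 192 in anti-Ly6G. The count of 3 ran from 0 to 6 when single libraries were left out, with 0 without DT ZT4 library 4, DT ZT16 library 1 or DT ZT16 library 3 and 6 without DT ZT16 library 2. Hspa8, the constitutive Hsp70, rose by 1.10 after anti-Ly6G and its difference of -0.90 did not pass (adjusted p = 0.0521).

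Among the genes with large called differences and at least median expression, those not yet described include Retnla on the more positive side and Glp1r, Ston1, Slfn5, Scube2, Krt80, Itga1, Atp7a and Ntrk2 on the more negative side. Retnla, which encodes the resistin-like protein RELM alpha and is in the airway secretory list, was at 29.4, 44.4, 41.6 and 29.6 and then 200, 66.7 and 74.0 in DT, and fell from between 40.0 and 87.9 (median 66.0) to between 29.1 and 45.7 (median 39.3) in anti-Ly6G. The difference was 2.22 ± 0.34 (SE, adjusted p = 3.73e-05), and 1.72 without the library at 200.
Glp1r, the GLP-1 receptor, went from 27.3 to 75.6 to 10.7 to 15.7 in DT and was at 21.2 to 34.4 and then 21.03 to 40.2 in anti-Ly6G, a difference of -1.74 ± 0.32 (SE, adjusted p = 0.000331). Ston1, an endocytic adaptor, moved in opposite directions, from 53.7 to 71.9 to 28.1 to 39.0 in DT and from 34.8 to 53.1 to 62.9 to 75.2 in anti-Ly6G, a difference of -1.57 ± 0.20 (SE, adjusted p = 7.22e-06). Neither treatment's groups overlapped for Ston1. Slfn5, a Schlafen gene that overlaps its antisense neighbour by 559 bases, went from 129 to 176 to 59.2 to 61.1 in DT and differed by -1.43 (adjusted p = 2.11e-05). Itga1, an integrin subunit that binds collagen, went from 163 to 228 to 62.3 to 97.1 in DT and differed by -1.40 (adjusted p = 7.22e-06). Krt80, a keratin, fell after DT and rose after anti-Ly6G (-1.43, adjusted p = 2.84e-05), as did Scube2, a secreted EGF-domain protein (-1.43, adjusted p = 0.000211). Atp7a, the copper transporter, differed by -1.36 (adjusted p = 6.44e-05). Ntrk2, the BDNF receptor, went from 43.1 to 57.2 to 13.7 to 18.4 in DT and differed by -1.34 (adjusted p = 0.00275). The interferon-induced Ifi27l2a differed by 0.99 (adjusted p = 0.0479) and lost the call in 14 of 21 fits that each left out 1 library. The mitochondrial gene mt-Nd6, a complex I subunit encoded on the light strand, rose by 0.56 after DT and fell by 0.35 after anti-Ly6G, a difference of 0.91 ± 0.14 (SE, adjusted p = 6.59e-05). Timp1, a metalloproteinase inhibitor of the acute phase list, differed by 1.44 (adjusted p = 0.00531).

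Transcript length moved with the result. The longest annotated transcript had a median of 2245 bases among genes with a more positive difference, 4792.5 among those with a more negative one and 3183 over all tested genes; 99.7% had a length. Across 5 classes of equal size from the shortest to the longest transcripts, the median difference was 0.18, 0.08, 0.02, -0.07 and -0.175. DT alone went from 0.12 in the shortest to -0.15 in the longest class and anti-Ly6G from -0.06 to 0.03. Within single libraries, Spearman's rho between length and the deviation from each gene's mean was 0.00529 to 0.31 in DT ZT4, -0.262 to -0.176 in DT ZT16, -0.166 to 0.137 in anti-Ly6G ZT4 and -0.134 to 0.292 in anti-Ly6G ZT16. The DT times did not overlap in this measure and the anti-Ly6G times did.

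The trend on length was then removed in each library, an analysis added after the data were seen. Of 16730 genes tested, 2370 differences were called, 1005 more positive and 1365 more negative. Of these, 1909 were called in the same direction as before. The numbers out of 16730, not the earlier shares, stand beside the list counts that follow. The counts were 12 of 23 for capillary endothelium, 9 of 25 for angiogenic signalling, 14 of 23 for ciliated cells, 10 of 16 for mesothelium, 6 of 20 for airway secretory cells and 11 of 30 for the cell cycle. Other lists lost most of their calls: oxidative phosphorylation went from 11 more positive and 1 more negative of 30 genes to 3 and 2, and ribosomal proteins from 5 and 0 of 32 to 0 and 3. Their counts depended on the scaling as well: after quantile normalisation 18 oxidative phosphorylation and 18 ribosomal protein differences were more positive. Leaving out single libraries gave 5 (without DT ZT4 library 1) to 14 and 2 to 11. Cox6c, a subunit of cytochrome c oxidase (0.49, adjusted p = 0.000624 before), kept its call, and Ndufa1, a complex I subunit (0.55, adjusted p = 0.00465 before), did not (0.28, adjusted p = 0.109). Whether length, RNA quality or the amplification of the libraries has a part in the other differences was not tested beyond this.

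**Figure D5:**
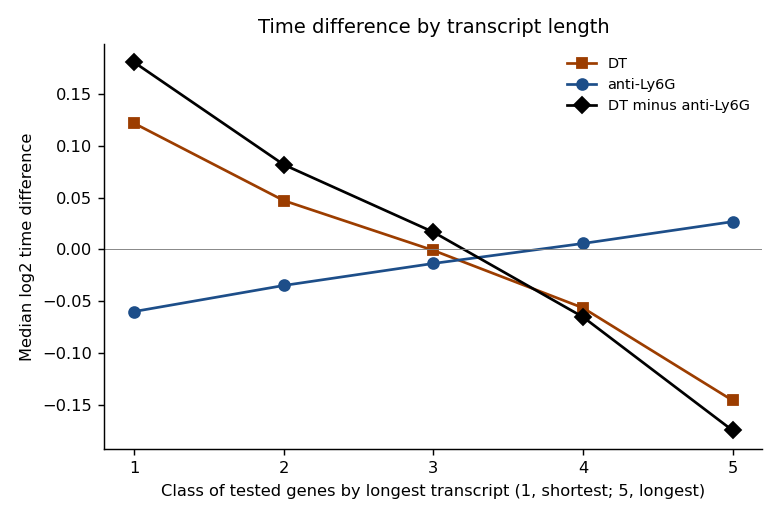
Median log2 time difference (y axis, ZT16 minus ZT4) in 5 classes of the tested genes by the longest annotated transcript (x axis, 1 is the shortest class) for DT, anti-Ly6G and their difference. The difference declines from 0.18 in the shortest to -0.175 in the longest class.

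In the lists not named above, no more than 4 differences were called in a direction. Among macrophage, monocyte, platelet, smooth muscle, heart muscle, fibroblast, unfolded protein response, glucocorticoid target, immediate early, glycolysis and fatty acid oxidation genes, no list had more than 3. The glucocorticoid target list had 1 of 19 genes called, yet its median difference of -0.55 lay below the -0.46 of capillary endothelium. None of 8 red cell genes and none of 20 unfolded protein response genes passed. Heart muscle genes, whose source in these lobes was not tested, had 1 of 20 called. Their summed levels were 901 to 1290 and then 874 to 1440 in DT. In anti-Ly6G they were 839 to 1360 and then 1010 to 1680.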

How the data were processed

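RNA of whole left lung lobes was amplified with the Ovation Single Cell kit and made into TruSeq libraries, per the labels' protocols. The tools named in the submitters' processing notes are kallisto 0.43.1, RSEM 1.2.20, CASAVA 1.8.2 and cutadapt, with the build GRCm38. The role of each tool and the normalisation are not given in the sources used here, nor is any handling of batches. The authors deposited 1 table of 22211 genes with a normalised signal for each library, with no value at 0, so the read depth and its precision are unknown and no count model was used. Column names give group and batch but not the labels' replicate numbers, so columns were mapped to groups only; nothing says which samples share an animal, litter or cage, and p-values measure the spread between these samples. No 2 libraries held identical values (highest correlation 0.9931).

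Values were taken as log2(value + 0.5), which understates changes of low genes. Genes at 1 or more in at least 3 of the 35 libraries were tested (16786; 5425 removed). limma 3.58.1 (R 4.3.3) with an intensity trend was fitted to all 35 libraries with 6 group means and 1 term for July and September (28 degrees of freedom left); a fit with 10 means (25 left) gave the batches alone. The 14 libraries outside the comparison came from control mice titled as non-depleted, 7 at each time. These mice received an antibody at 3 µg/g and belong to the September and July batches. They gave 2 of the 6 means and entered the estimate of spread behind each p-value. Tests were two-sided with Benjamini-Hochberg adjustment over all genes tested, called below 0.05. The fit was tested on simulated data. Overlaps and lengths come from the GENCODE annotation of GRCm38. Overlap with other genes is given without regard to strand, since whether counting used strand is not given.

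Named genes were up to 12 largest called differences in each direction with a mean at or above the median gene and the same sign against both antibody batches, the core clock genes, neutrophil transcripts, the 10 largest anti-Ly6G rises and falls, and up to 4 members a list. Some genes that met the rule are not reported here. The members, the 46 lists (850 genes tested) and the shown genes were chosen with earlier results of these data known. Gm11175, RP23-325D10.3, Cdh5, Ptprb, Calcrl, Ace, Vwf, Kit and Hspa8 were named after their values were seen. Alternatives were other pseudocounts, filters, scalings and limma settings, the 21 libraries alone, and each library left out.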

Additional observations from a re-analysis of the deposited data

Results flagged for a closer look

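The calls of a difference between the time differences, 3202 genes, and the 338 genes called in both depletions in opposite directions came from the test of the difference and from each treatment's own test. Of the genes named, 28 were called in both treatments with opposite signs and had a called difference. Many genes were named for a large or low-p difference, so this number does not show how common such genes are. Over all 16786 genes tested it was 338, out of 675 called in both treatments. The more positive ones after DT were Retnla (2.22), Slurp1 (1.72), Cfap126 (0.97), Mapk15 (0.92), mt-Nd6 (0.91), Dmkn (0.78), Dynlrb2 (0.71), Ndufa1 (0.55) and Cox6c (0.49). Among vascular, stromal and matrix genes the more negative ones were Ptprb (-1.13), Ace (-1.10), Pdgfra (-0.99), Notch1 (-0.88), Calcrl (-0.86), Kit (-0.85), Tek (-0.84), Nid1 (-0.68) and Lamc1 (-0.47). The others were Ston1 (-1.57), Scube2 (-1.43), Krt80 (-1.43), Fasn (-0.84), Lrp1 (-0.52), Lgi3 (-0.46), Mfge8 (-0.43) and Pros1 (-0.40). With the length trend removed the differences of Lrp1 (-0.29, adjusted p = 0.0664) and Ndufa1 (0.28, adjusted p = 0.109) did not pass.

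The last of the 28 are the predicted genes Gm11175 (-5.17) and RP23-325D10.3 (-6.07), the widest differences of the genes described. Gm11175 was at 13.4 to 38.6 in DT ZT4 and 0.582 to 0.795 in DT ZT16, against 3.90 to 6.91 and 6.25 to 10.9 in anti-Ly6G. RP23-325D10.3 was at 13.5 to 24.4 and then 0.276 to 0.397 in DT. Their exons overlap those of other genes by 877 and 5240 bases, so the reads may belong to their neighbours; this was not tested.

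A library stood apart from its group in 30 of 333 gene-by-group sets examined, from 111 genes. The 3 libraries of DT ZT16 were too few for this check and were not examined. Chance gives about 1 in 20 for independent normal values. These sets share libraries and the anti-Ly6G groups mix September and July, so that rate is only a rough guide. In 13 of the 30 it was the second September library of anti-Ly6G ZT4: high for Aldh1a2 (56.4), Slpi (86.7), Ntrk2 (76.3), Slurp1 (18.04), Dmkn (42.1), Tpx2 (12.2), Ube2c (7.36), Ccna2 (11.0), Cxcl5 (4.44), Cxcl12 (343.9), Klra4 (5.11) and Timp1 (21.6) and low for Lyve1 (123.8). The third July library of anti-Ly6G ZT4 was high for Usp18 (34.5), Cxcl10 (6.20), Oasl2 (127.1), Itga1 (169.2) and Pdgfra (322.9). Others at that time and treatment were low for Mapk15 (28.0) and Dynlrb2 (23.4) and high for Rora (62.1). In DT ZT4 the first library was low for Cfap126 (17.2) and high for Itga1 (228.4) and Vwf (1023). In anti-Ly6G ZT16 single libraries were high for Scube2 (59.1), Cys1 (55.6), Fam107a (93.5), Fkbp5 (132.1), Klra3 (1.30) and Nid1 (222.5). What set these libraries apart was not tested.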

How the results depend on the processing

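No paired analysis was possible because the columns do not carry the labels' replicate numbers and the mice at the 2 times are different animals. Calls of the difference stayed within 1.5 times of 3202 under every planned setting other than leaving out DT ZT4 library 1: leaving out 1 library gave 2121 to 3399, and other planned settings 2805 (no filter) to 3916 (library weights). Removing the length trend, an alternative added after the data were seen, gave 2370. Leave-one-out ranges were 2346 to 3662 against September, 503 to 1216 against July, 1190 to 2658 for DT alone and 2857 to 3635 for anti-Ly6G alone. For September minus July within anti-Ly6G they were 0 to 220, where 220 came without ZT16 library 3 of July. That comparison had 0 calls in limma with a pseudocount of 1, no filter, quantile normalisation, no trend, a robust prior or the length trend removed, and 13 with library weights, against 1 as reported. Against July alone, centring gave 20.3% more positive calls and quantile normalisation 41.8%, compared with 30.9%.

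Of 111 named genes, quantile normalisation lost 8 calls, library weights 1, the 21 libraries alone 5, no filter 6 and removing the length trend 13. Leaving out DT ZT16 library 1 lost 16 calls, and DT ZT16 library 2, DT ZT16 library 3 or DT ZT4 library 1 lost 10 each; no other single library lost more than 7. Signs turned in 4 genes, none called in any of these: Per3 (0.053 after quantile normalisation, 0.087 after length removal), Colq (0.042 with library weights) and Csf3r (0.16 with library weights). Leaving out single libraries gave -0.32 to 0.11 for Per3, -0.22 to 0.25 for Colq, -0.19 to 0.10 for Csf3r and -1.16 to 0.084 for Fkbp5. The cause of these changes was not tested.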
